A study of Homo sapiens with 19 samples.

Results

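The genes described here are the human genes named ZNF with a number, a naming series for zinc finger proteins, that were well expressed in HepaRG cells. A gene was included if its symbol was ZNF, a number and at most 1 further letter, and if its level averaged at least 10 CPM (the count divided by the library total and multiplied by 1e6) over all 19 libraries. Of 78894 rows in the table, 563 carried such a symbol and 191 passed the level. A further 3 pseudogenes over the level were left out, and 317 protein-coding ZNF genes lay under it. The members were thus chosen by their mean level, so the levels below are a description. The mean takes in the treated libraries, so a member can lie over the limit because of 1 group. Without siADAR, ZNF107 averaged 9.31 CPM over the other 16 libraries. Without BX795, ZNF521 averaged 9.54 CPM, and without BX795 and BX795 with siADAR it averaged 6.72 CPM over 14 libraries. Values of ZNF107 and ZNF521 in comparisons with those groups are therefore given as a description, without a p-value. Without both siADAR and siADARB1, ZNF107, ZNF367 and ZNF473 averaged 8.81 to 9.97 CPM over 13 libraries. ZNF367 and ZNF473 stayed over the limit without siADAR alone. Their p-values in comparisons that use batch 1 libraries carry this caveat, also in the test across batches given at the end. In all, leaving out 1 group put 1 member under the limit for siADAR, 1 for siADARB1, 0 for siNC of batch 1, 2 for BX795 with siADAR, 8 for BX795, 5 for IFNa and 7 for siNC of batch 2. Such members are part of the counts below, which support no statement on ZNF genes as a group.

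HepaRG is a human hepatic line, labelled as hepatic carcinoma, that holds hepatocyte-like beside biliary-like cells once matured. According to the labelled protocols, matured cells were transfected with siRNA at 20 nM and given fresh media at 24 and 48 h, the last of them serum-free, and total RNA freed of ribosomal RNA was sequenced. Batch 1 held siADAR (1 siRNA against ADAR, 3 libraries), siADARB1 (1 siRNA against ADARB1, 3 libraries) and siNC (the negative control siRNA, 3 libraries). Batch 2 held BX795 with siADAR (1 µM BX795 and the ADAR siRNA, 2 libraries), BX795 (1 µM, 3 libraries), IFNa (interferon alpha at 1000 U/mL, 2 libraries) and its own siNC controls (3 libraries). Both agents were in the media from the day of transfection on, and the sources used here do not say if wells given only IFNa or BX795 got the control siRNA too. ADAR and ADARB1 are enzymes that convert adenosine to inosine in double-stranded RNA, and BX795 inhibits the kinases TBK1 and IKK epsilon. Nothing in the labels calls the replicates separate cultures, so p-values reflect the spread among libraries alone.

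Most ZNF proteins bind DNA through C2H2 zinc fingers, short units in which a pair of cysteines and a pair of histidines hold a zinc ion and which follow each other in tandem. The largest subclass adds a KRAB domain, which binds TRIM28 and through it recruits the histone methyltransferase SETDB1, HP1 proteins and histone deacetylases to silence transposable elements and genes. Many KRAB zinc finger genes lie in clusters on chromosome 19, where they arose by tandem duplication, and their transcripts often carry Alu repeats, a main substrate of ADAR. RNA editing was not measured in these counts.

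The repeated finger units are shown here for the neighbours ZNF107, ZNF680 and ZNF117 on chromosome 7 and for ZNF780B on chromosome 19, which the ADAR comparison below turns on. Each line is 1 finger repeat of 81 bases, 5′ to 3′ on the gene's strand, from a GENCODE 29 coding exon on GRCh38. The capitals mark the codons of the finger's last histidine, the conserved linker and the first residue of the next finger.
ZNF107: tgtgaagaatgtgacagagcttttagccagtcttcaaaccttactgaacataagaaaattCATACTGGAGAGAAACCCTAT
ZNF680: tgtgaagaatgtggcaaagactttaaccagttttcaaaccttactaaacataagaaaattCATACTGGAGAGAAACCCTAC
ZNF117: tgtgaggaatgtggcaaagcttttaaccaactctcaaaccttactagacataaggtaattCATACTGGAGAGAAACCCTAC
ZNF780B: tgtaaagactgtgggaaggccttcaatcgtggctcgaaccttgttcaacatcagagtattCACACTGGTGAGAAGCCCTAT
The ZNF107 repeat lies at chr7:64707628-64707708 on the plus strand, and the ZNF680 repeat at chr7:64521704-64521784 on the minus strand. The ZNF117 repeat lies at chr7:64978488-64978568 and the ZNF780B repeat at chr19:40035272-40035352, both on the minus strand. Against the ZNF107 repeat, ZNF680 matched at 73 of 81 bases, ZNF117 at 68 and ZNF780B at 56. The reading frames held 12 such linkers in ZNF107, 3 in ZNF680, 4 in ZNF117 and 11 in ZNF780B.

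Promoters are shown for members that moved in opposite directions after the 2 siRNAs or that are neighbours, from the RefSeq table of GRCh38.p14, which gave 250 bases before to 50 after the start for 168 of the 191 members. Capitals mark 2 motifs searched on both strands, CCAAT, bound by NF-Y, and TTTNNCGC, which covers the consensus of E2F factors; neither overlapped the other in these windows.
ZNF107: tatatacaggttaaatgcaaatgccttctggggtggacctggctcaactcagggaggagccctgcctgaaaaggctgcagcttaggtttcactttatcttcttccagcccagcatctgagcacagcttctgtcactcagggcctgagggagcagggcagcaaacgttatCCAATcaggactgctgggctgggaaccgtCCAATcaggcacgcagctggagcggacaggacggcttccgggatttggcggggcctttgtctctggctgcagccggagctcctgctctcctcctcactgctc
ZNF680: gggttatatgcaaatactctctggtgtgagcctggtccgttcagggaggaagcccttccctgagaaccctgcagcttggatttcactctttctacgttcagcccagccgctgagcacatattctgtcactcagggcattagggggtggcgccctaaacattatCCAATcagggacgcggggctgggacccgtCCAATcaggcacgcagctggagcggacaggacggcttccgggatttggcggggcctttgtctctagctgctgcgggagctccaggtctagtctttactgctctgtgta
ZNF367: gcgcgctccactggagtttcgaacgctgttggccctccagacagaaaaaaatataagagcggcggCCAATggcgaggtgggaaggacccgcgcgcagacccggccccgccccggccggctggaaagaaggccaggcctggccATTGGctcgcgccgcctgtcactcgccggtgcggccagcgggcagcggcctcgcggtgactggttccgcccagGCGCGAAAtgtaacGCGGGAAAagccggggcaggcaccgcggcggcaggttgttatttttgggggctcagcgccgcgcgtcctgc
ZNF503: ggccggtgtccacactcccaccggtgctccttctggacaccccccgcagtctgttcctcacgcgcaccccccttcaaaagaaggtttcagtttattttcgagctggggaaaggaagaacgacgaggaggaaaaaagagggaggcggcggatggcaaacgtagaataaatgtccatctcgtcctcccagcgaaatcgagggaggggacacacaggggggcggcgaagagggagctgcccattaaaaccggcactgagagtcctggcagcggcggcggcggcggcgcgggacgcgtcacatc
These windows lie at chr7:64665883-64666182 (plus) for ZNF107, chr7:64563022-64563321 (minus) for ZNF680, chr9:96418321-96418620 (minus) for ZNF367 and chr10:75401867-75402166 (minus) for ZNF503. ZNF107 and ZNF680 shared an unbroken run of 68 bases, which includes the second CCAAT, whereas every other pair shared runs of 8 or 9 bases. CCAAT was in 70 of the 168 member promoters, or 41.7%, against 36.4% of 15842 protein-coding promoters of the same length. TTTNNCGC was in 17 member promoters (10.1%, against 8.86%); ZNF367 holds 2 matches, both on the reverse strand.

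Total counts per library were 42.7 to 77.1 M in batch 1 and 13.1 to 34.7 M in batch 2. ADAR fell to 59.6 ± 4.84 CPM after siADAR, against 239.6 ± 1.30 CPM after siNC (SD, n = 3 each; log2 fold change −2.01 ± 0.05 SE), and to 58.0 ± 2.66 CPM after BX795 with siADAR (n = 2), against 290 ± 14.7 CPM after BX795 (n = 3; −2.32 ± 0.12). ADARB1 fell to 9.96 ± 0.499 CPM after siADARB1, against 29.9 ± 1.07 CPM after siNC (n = 3 each; −1.59 ± 0.06), and was also lower after siADAR (−0.26 ± 0.06). The adjusted p-values, all from edgeR's quasi-likelihood test over all genes, were 4.13e-12, 1.12e-05, 8.27e-10 and 0.00178. Hepatocyte markers summed to 40800 to 42500 CPM after siADAR, 46000 to 47900 after siADARB1 and 51400 to 54000 after siNC in batch 1. In batch 2 they summed to 6150 to 7630 CPM after BX795 with siADAR, 9140 to 9540 after BX795, 8640 to 8750 after IFNa and 9230 to 11500 after siNC. The 7 biliary markers summed to 785 to 815 CPM after siADAR, 362 to 384 after siADARB1 and 317 to 357 after siNC, and the 5 markers of other cells to 47.3 to 51.1, 49.1 to 51.4 and 44.8 to 47.6 CPM in the same order. Within batch 1, EPCAM was at 0 in the siADAR and siNC libraries and PTPRC in the siNC libraries. In batch 2 the biliary markers summed to 197 to 234 CPM after BX795 with siADAR, 122 to 136 after BX795, 171 to 194 after IFNa and 218 to 282 after siNC, with EPCAM at 0 in every group. The markers of other cells summed to 28.4 to 33.1 CPM after BX795 with siADAR, 32.2 to 37.1 after BX795, 42.0 to 48.1 after IFNa and 47.2 to 50.4 after siNC. In batch 1 the hepatocyte sum was lower and the biliary sum higher after either siRNA than after siNC, more so after siADAR. The genes of a list did not all move alike. In log2 fold change after siADAR, ALB (−0.58), TTR (−0.23), HNF4A (−0.67) and CPS1 (−1.24) fell, whereas CYP3A4 rose (2.25). APOA1 (0.00) and SERPINA1 (0.04) were not called. After siADARB1, SPP1 (0.89) and ITGB4 (0.50) rose, SOX9 fell (−0.21), and KRT19 (0.03) and KRT7 (0.25) were not called. In batch 2 the hepatocyte and biliary sums were lower after IFNa than after siNC, and the biliary and other-cell sums after BX795. Within the biliary list after BX795, KRT19 (−1.62), ITGB4 (−1.54) and SPP1 (−0.55) fell, whereas KRT7 (1.17) and SOX9 (0.57) rose. CYP3A4 of the hepatocyte list rose by 5.51 after BX795. After IFNa, KRT19 (−0.79) and ITGB4 (−0.90) fell, whereas SPP1 rose (0.91). With siADAR added to BX795, the hepatocyte sum was lower and the biliary sum higher than after BX795. The part of these markers in the results on ZNF genes was not tested. In bulk RNA, fewer cells of a type and less RNA per cell cannot be told apart.

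Among the 191 members, 88 (46.1%) carried a KRAB motif in the longest reading frame of their GENCODE 29 transcripts, 11 a SCAN motif and 187 at least 1 C2H2 finger motif, with a median of 10 fingers and a maximum of 35 in ZNF142. The KRAB motif was searched as a fixed sequence pattern, so KRAB genes that depart from it may be among the members without one. KRAB members here are those with the motif. They had a median of 13 fingers and a transcript GC content of 42.5%, against 8 fingers and 47.4% for the 103 members without it. Chromosome 19 held 69 members (36.1%), 53 of them with a KRAB motif, followed by chromosome 7 with 17, chromosome 16 with 15 and chromosome 1 with 11. The longest transcript of a member had a median of 4902 bases and 43.9% GC, against 2999 bases and 47.9% GC over all genes tested in batch 1.

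The mean level ran up to 138.5 CPM for ZNF207, a protein of the mitotic spindle that binds BUB3, with ZNF655 (115.6 CPM), ZNF106 (104.1 CPM) and ZNF24 (95.1 CPM) next. CPM is not scaled for transcript length, so it does not rank these genes by molecules. Just inside the level were ZNF124 (10.04 CPM), ZNF668 (10.01 CPM) and ZNF227 (10.01 CPM), and just outside it ZNF234 (9.93 CPM), ZNF143 (9.90 CPM) and ZNF202 (9.83 CPM). In both batches 157 members averaged 10 CPM or more, 31 were under it in batch 1 and 3 in batch 2. The widest gaps between batches included ZNF521, with 1.83 CPM in batch 1 and 26.5 CPM in batch 2, and ZNF367, with 26.4 CPM in batch 1 and 5.69 CPM in batch 2. All 191 members passed the filter on low counts in both batches and were tested.

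After siADAR, more ZNF genes were lower than higher. Of the 191 members, 56 fell and 17 rose at an adjusted p below 0.05, which is 38.2% called, against a background of 37.8% of all 21747 tested genes, of which 17.6% fell and 20.2% rose. The share called was thus close to the background while the split between directions differed from it; no test was made of that split. The median log2 fold change of the members was −0.06 (quartiles −0.19 and 0.05), against −0.01 over all tested genes (quartiles −0.25 and 0.22). Single members ran from −1.22 to 0.54, and for 98 of 191 (51.3%) the siADAR and siNC libraries did not overlap, against 47.9% of all tested genes. Counts of members stayed between 58 and 66 when any 1 library was left out. A fit sharing its spread with the noisier batch 2 libraries called 26 members, of which 22 fell and 4 rose, against 21.8% of all genes.

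The strongest falls after siADAR were in ZNF521, ZNF385B, ZNF503, ZNF652 and ZNF780B. ZNF521 is a cofactor that restrains EBF1 in blood, fat and neural precursors; it lies at chr18:25061924-25352166. It had 0.946, 1.065 and 0.878 CPM in the siADAR libraries, 2.21, 2.44 and 2.25 CPM in the siADARB1 libraries and 2.02, 2.55 and 2.185 CPM in the siNC libraries of batch 1. All siADAR libraries were below all others, at a level well under 10 CPM (−1.22 ± 0.16, adjusted p = 2.52e-05, edgeR). ZNF385B, of a family of RNA-binding zinc finger proteins linked to p53, had 11.2, 9.75 and 10.4 CPM after siADAR, 16.9, 18.4 and 18.4 CPM after siADARB1 and 16.4, 16.2 and 16.9 CPM after siNC (siADAR against siNC −0.65 ± 0.06, adjusted p = 1.49e-06). ZNF652, a repressor that works with the corepressor CBFA2T3, had 49.0, 43.2 and 45.2 CPM after siADAR, 65.8, 60.7 and 65.3 CPM after siADARB1 and 67.8, 67.7 and 67.8 CPM after siNC (−0.56 ± 0.05, adjusted p = 3.06e-07). In each of these genes the siADAR libraries formed the low group without overlap.

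ZNF503, a corepressor of the NET family that carries no classical finger motif, lies at chr10:75279725-75401916. It had 6.33, 7.18 and 5.95 CPM after siADAR, 11.9, 12.1 and 12.8 CPM after siADARB1 and 8.48, 9.94 and 11.02 CPM after siNC. It was thus lowest after siADAR (−0.60 ± 0.10, adjusted p = 0.000241, edgeR) and highest after siADARB1 (0.32 ± 0.10, adjusted p = 0.0355), with no overlap of the groups. The siADARB1 call for ZNF503 was lost in 5 of the fits that left out a library, after GC correction and in the fit over all 19 libraries.

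ZNF367, ZNF286A, ZNF473 and ZNF532 rose most after siADAR, beside ZNF107, whose siADAR libraries put it over the limit. ZNF107, a KRAB zinc finger gene with 16 fingers at chr7:64666133-64711577, had 17.9, 18.96 and 19.2 CPM after siADAR, 10.96, 11.5 and 11.9 CPM after siADARB1 and 12.8, 12.98 and 12.8 CPM after siNC, a log2 difference of 0.54 between siADAR and siNC. ZNF367, a transcription factor with 2 fingers at chr9:96385941-96418370, had 33.9, 34.7 and 34.8 CPM after siADAR, 21.7, 20.45 and 18.6 CPM after siADARB1 and 23.55, 24.3 and 24.97 CPM after siNC. Its 3 groups were fully apart, with siADAR above siNC (0.50 ± 0.05, adjusted p = 2.65e-06, edgeR) and siADARB1 below it (−0.26 ± 0.05, adjusted p = 0.00394). ZNF473, a part of the U7 machinery that trims histone mRNA ends, had 13.4, 13.3 and 12.6 CPM after siADAR, 11.1, 13.03 and 11.25 CPM after siADARB1 and 10.5, 10 and 10.7 CPM after siNC (siADAR against siNC 0.34 ± 0.07, adjusted p = 0.00181). The rise of ZNF473 was not called in the fit over all 19 libraries. ZNF286A (0.38 ± 0.08, adjusted p = 0.0012) shares 62.4% of its 75-base words with its near-identical copy ZNF286B, so its reads may be split between them.

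**Figure D1:**
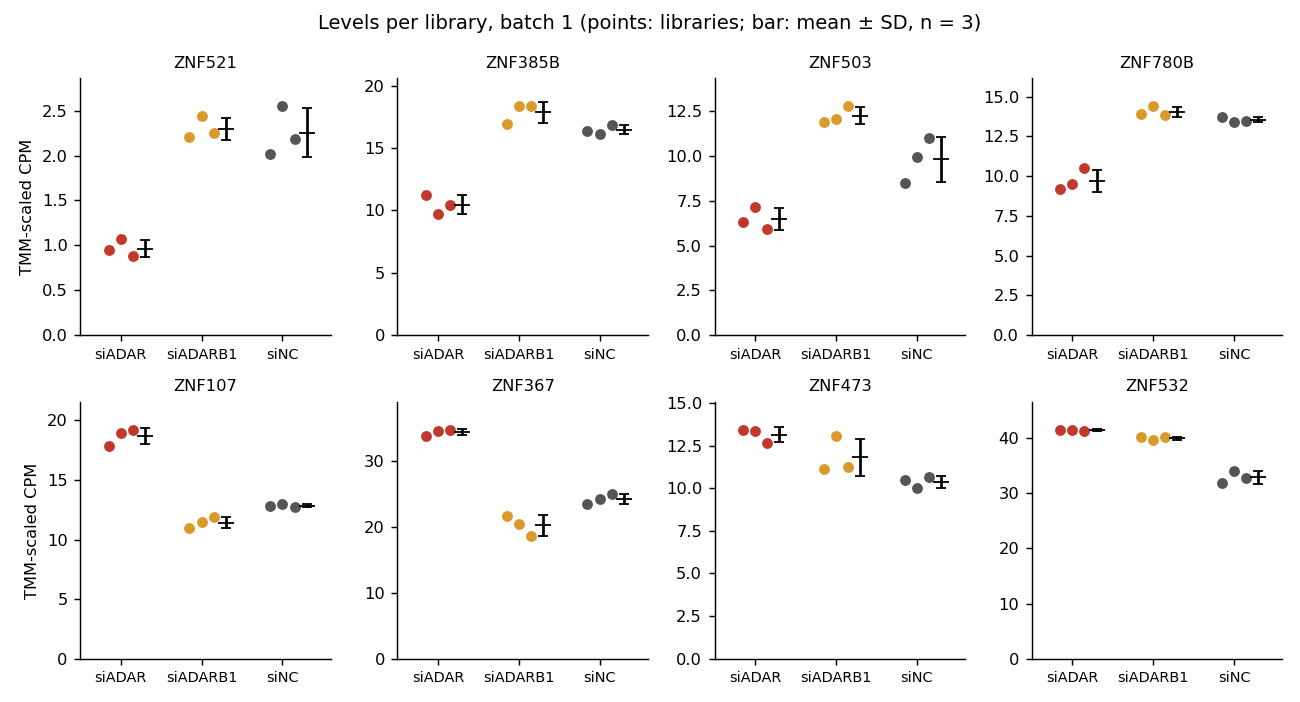
TMM-scaled CPM of 8 ZNF genes in each batch 1 library, with siADAR, siADARB1 and siNC from left to right; points are libraries and bars show the mean with its SD (n = 3). The siADAR libraries lie below all siNC libraries in the panels of ZNF521, ZNF385B, ZNF503 and ZNF780B, and above them in those of ZNF107, ZNF367, ZNF473 and ZNF532.

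By class, 25 of 88 KRAB members fell and 5 rose after siADAR (median −0.09), against 31 falls and 12 rises among 103 members without a KRAB motif (median −0.04). On chromosome 19, 20 of 69 members fell and 3 rose, against 36 falls and 14 rises among the 122 on other chromosomes. Of the 53 that are both KRAB and on chromosome 19, 18 fell and 2 rose (median −0.11). By finger number, 13 of 32 members with up to 4 fingers fell and 4 rose, and 19 of 70 with more than 12 fell and 6 rose. Differences between these classes were not tested, and the KRAB classes rest on the motif pattern alone. Over all tested genes 17.6% fell and 20.2% rose. Of the ZNF genes under the level, 247 were tested, of which 25 fell and 26 rose. Of the 157 members at 10 CPM or more in both batches, 49 fell and 14 rose. Of other zinc finger families, 11 of 29 ZBTB genes fell and 2 rose, 3 of 9 ZSCAN and ZKSCAN genes fell and 0 rose, and 1 of 7 ZFP genes went each way.

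Along chromosome 19, members were grouped into stretches, split wherever neighbours lay over 1.5 Mb apart. Calls in these stretches stand beside 17.6% lower and 20.2% higher over all tested genes, with no test of a stretch. In the stretch from ZNF302 to ZNF793 (chr19:34675979-37543333), all 8 members had a negative log2 fold change after siADAR, from −0.39 to −0.04 with a median of −0.22, and 5 of them fell. The next members distally, ZNF780B and ZNF780A (chr19:40028260-40090943), both fell. ZNF780B, a KRAB gene with 21 fingers, had 9.17, 9.48 and 10.5 CPM after siADAR, 13.9, 14.4 and 13.9 CPM after siADARB1 and 13.7, 13.4 and 13.5 CPM after siNC, with all siADAR libraries below both other groups (−0.48 ± 0.06, adjusted p = 3.1e-05, edgeR). ZNF780A was at a smaller value (−0.29 ± 0.06, adjusted p = 0.00207). The stretch from ZNF841 to ZNF765 (chr19:52058490-53427321), which holds 15 members, 13 of them KRAB, had 2 falls and 1 rise, with a median of 0.04. The last stretch, ZNF579 to ZNF446 (chr19:55576774-58489533), had 16 negative values among 18 members, a median of −0.10 and 4 falls against 0 rises.

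**Figure D2:**
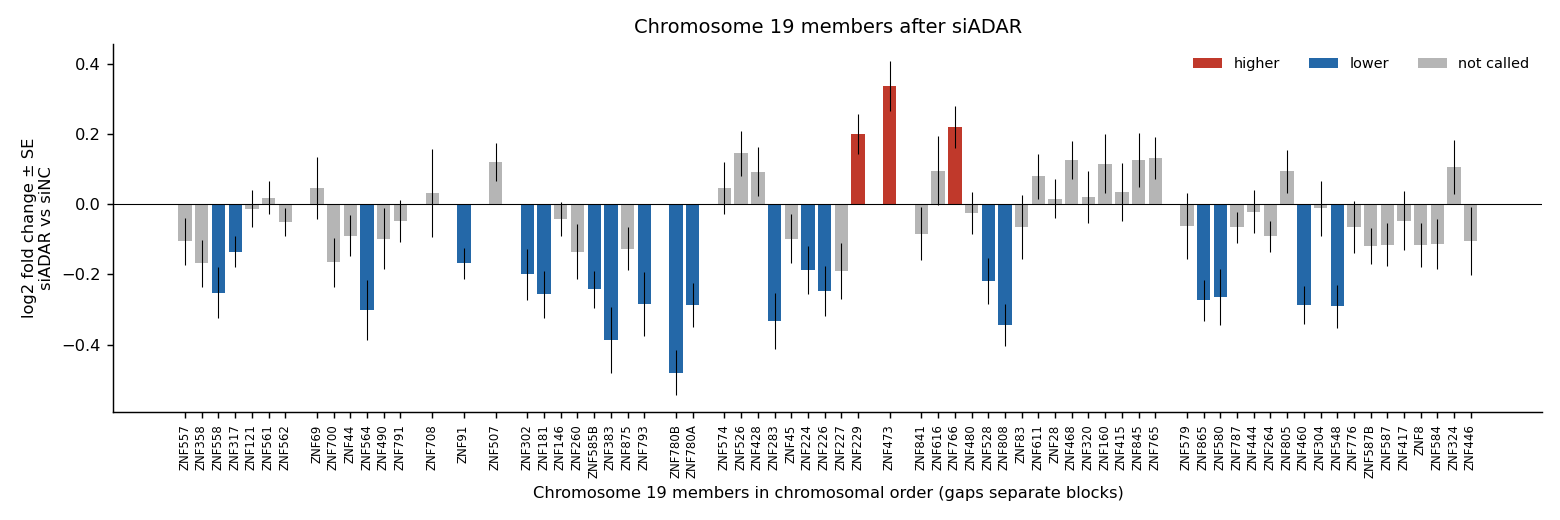
Log2 fold change, siADAR against siNC, of the chromosome 19 members in chromosomal order, with bars of 1 SE. Gaps separate stretches whose members lie over 1.5 Mb apart. All 8 members from ZNF302 to ZNF793 lie below 0, whereas the 15 from ZNF841 to ZNF765 spread around it.

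On chromosome 7, neighbours with similar finger repeats went different ways after siADAR. ZNF680 (chr7:64499069-64563071) had 30.85, 29.02 and 30.1 CPM after siADAR, 22.1, 23.6 and 21.2 CPM after siADARB1 and 24.8, 25.3 and 25.15 CPM after siNC, so it rose after siADAR (0.26 ± 0.05, adjusted p = 0.00053, edgeR) and fell after siADARB1 (−0.17 ± 0.05, adjusted p = 0.0285). ZNF107, whose promoter shares the 68-base run with that of ZNF680, was higher after siADAR as given above and was at −0.17 after siADARB1 (adjusted p = 0.0554). ZNF117, the third neighbour (chr7:64971772-64991036), fell after siADAR (−0.27 ± 0.06, adjusted p = 0.00111).

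Members with known roles are given by role, each list holding members and other genes of the same role. Of 16 tested promoter and enhancer factors, 5 fell and 3 rose after siADAR, beside 17.6% lower and 20.2% higher over all tested genes; these are counts of a short list, with no test of the list. ZNF148, which binds GC-rich promoters, had 42.9, 42.55 and 45.15 CPM after siADAR, 51.35, 56.0 and 54.5 CPM after siADARB1 and 53.2, 55.7 and 59.2 CPM after siNC (siADAR against siNC −0.36 ± 0.05, adjusted p = 2.48e-05, edgeR). ZNF395, a factor induced by hypoxia, also fell (−0.30 ± 0.04, adjusted p = 2.92e-05), with 41.4% of its 75-base words shared with FBXO16. ZNF219, a partner of SOX9 in cartilage, fell (−0.34 ± 0.06), as did ZNF521 and ZNF503 above. ZNF462 (0.19 ± 0.05) and ZNF281 (0.14 ± 0.04), regulators of pluripotent and embryonic cells, rose beside ZNF367.

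Of 11 partners of chromatin complexes, 3 rose and 3 fell, beside the same background of 20.2% higher and 17.6% lower. ZNF532, which forms a complex with ZNF592, ZNF687 and ZMYND8, had 41.55, 41.5 and 41.3 CPM after siADAR, 40.2, 39.7 and 40.2 CPM after siADARB1 and 31.8, 34.1 and 32.75 CPM after siNC. Both knockdowns stood above siNC without overlap, by 0.34 ± 0.04 for siADAR (adjusted p = 6.87e-06, edgeR) and 0.28 ± 0.04 for siADARB1 (adjusted p = 0.000126). Its partners did not pass the test, at −0.12 ± 0.07 for ZNF592 and −0.03 ± 0.06 for ZNF687 after siADAR. ZNF217, a component of CoREST complexes, rose (0.18 ± 0.04), as did the SUMO ligase ZNF451 (0.17 ± 0.04). ZNF644, a partner of the methyltransferases EHMT1 and EHMT2, fell (−0.27 ± 0.04, adjusted p = 7.26e-05), and so did ZNF512B (−0.21 ± 0.05) and ZNF608 (−0.19 ± 0.04).

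Of 12 zinc finger proteins of RNA, ribosomes and the spindle, 5 fell and 0 rose after siADAR (median −0.10), beside 17.6% lower and 20.2% higher over all tested genes. The called members were ZNF346, which binds double-stranded RNA (−0.36 ± 0.10, adjusted p = 0.0114, edgeR), ZNF598, the ubiquitin ligase of collided ribosomes (−0.21 ± 0.05, adjusted p = 0.00519), ZNF318 (−0.20 ± 0.05, adjusted p = 0.00341) and ZNF277 (−0.17 ± 0.04, adjusted p = 0.00448). ZNF346 lost its call without siADAR replicate 2 (−0.31) and without siNC replicate 1 (−0.24). The fit over all 19 libraries called 2 of the 12, beside 21.8% of all genes.

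Among the genes through which KRAB zinc finger proteins act, rises outnumbered falls after siADAR in batch 1. Of 21 corepressor genes, 11 rose and 2 fell after siADAR, with a median of 0.11, against 20.2% higher and 17.6% lower over all tested genes. TRIM28, the scaffold, rose by a little (0.19 ± 0.04, adjusted p = 0.00114, edgeR), while SETDB1 was at −0.02 ± 0.04 (adjusted p = 0.744). The larger rises were in UHRF1, which brings DNMT1 to replicating DNA (0.82 ± 0.07, adjusted p = 2.66e-07), the deacetylase HDAC2 (0.44 ± 0.04), and the HP1 genes CBX1 (0.43 ± 0.08) and CBX3 (0.35 ± 0.06). ATF7IP, a cofactor of SETDB1, fell (−0.19 ± 0.04), as did CHD3 (−0.23 ± 0.05). UHRF1 and DNMT1 are also genes of proliferating cells. UHRF1 and TRIM28 also rose after siADARB1 (0.31 ± 0.07 and 0.15 ± 0.04), whereas HDAC2, CBX1 and CBX3 were not called (0.04, 0.01 and 0.03). In batch 2, BX795 with siADAR against BX795 left UHRF1 at −1.15 ± 0.32, opposite in sign. There HDAC2 was at 0.20, TRIM28 at 0.17, CBX3 at 0.15 and CBX1 at 0.02, and UHRF1 and these genes were not called. The fit over all 19 libraries called 6 higher and 1 lower of the 21, beside 21.8% of all genes called in either direction.

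After siADARB1, fewer ZNF genes moved, mostly upward. Of 191 members 18 rose and 4 fell, or 11.5%, against a background of 16.7% of all tested genes, with 8.25% higher and 8.45% lower. The median member changed by 0.04 and the range was −0.26 to 0.32, and for 64 members (33.5%) the groups did not overlap, against 32.2% of all tested genes. ZNF692, a factor named for its response to the AMPK activator AICAR, had 32.2, 28.3 and 31.0 CPM after siADARB1, 27.0, 26.6 and 26.3 CPM after siADAR and 25.5, 21.8 and 26.0 CPM after siNC (siADARB1 against siNC 0.31 ± 0.06, adjusted p = 0.00342, edgeR). ZNF264, a KRAB gene of chromosome 19, had 24.98, 25.6 and 24.9 CPM after siADARB1, 28.1, 26.1 and 27.3 CPM after siADAR and 29.2, 29.5 and 28.4 CPM after siNC, lowest in all siADARB1 libraries (−0.20 ± 0.04, adjusted p = 0.00445). ZNF609, a partner of the Integrator complex, rose (0.16 ± 0.04, adjusted p = 0.00917). Fewer calls were left without siADARB1 replicate 1, at 11, and the fit over all 19 libraries called 0 members with edgeR (17 at an unadjusted p under 0.05), against 4.61% of all genes; DESeq2 called 23 in the batch 1 libraries. After GC correction edgeR called 22 higher and 4 lower, against 7.88% and 8.85% of all genes.

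The siADAR and siADARB1 comparisons use the same siNC libraries, so their values are set side by side without a test of likeness. Called in both were 12 members. ZNF462, ZNF532, ZNF316, ZNF407, ZNF276 and ZNF229 were higher and ZNF330 lower after both siRNAs. ZNF219, ZNF558 and ZNF503 were lower after siADAR and higher after siADARB1, and ZNF680 and ZNF367 the reverse. ZNF219 had 34.4, 36.0 and 30.6 CPM after siADAR, 51.6, 46.5 and 49.85 CPM after siADARB1 and 43.3, 42.9 and 42.1 CPM after siNC, with 3 groups that did not overlap. ZNF330 had 30.5, 28.6 and 31.1 CPM after siADAR, 31.5, 34.4 and 33.5 CPM after siADARB1 and 37.55, 37.3 and 38.65 CPM after siNC, with siNC on top.

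Set directly against siADARB1, siADAR left 75 members lower and 11 higher, or 45.0%, against a background of 35.7% called, with 16.9% lower and 18.8% higher. The median member was at −0.11. The largest differences were ZNF521 (−1.26 ± 0.16, adjusted p = 2.2e-05, edgeR), ZNF503 (−0.92 ± 0.10, adjusted p = 4.88e-06) and ZNF385B (−0.77 ± 0.06, adjusted p = 3.24e-07) on the low side, and ZNF367 (0.76 ± 0.05, adjusted p = 5.74e-08) on the high side, where ZNF107 lay at 0.71. The fit over all 19 libraries called 30 lower and 4 higher, against 19.5% of all genes. For 113 members (59.2%) the siADAR and siADARB1 libraries did not overlap, against 47.1% of all tested genes.

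**Figure D3:**
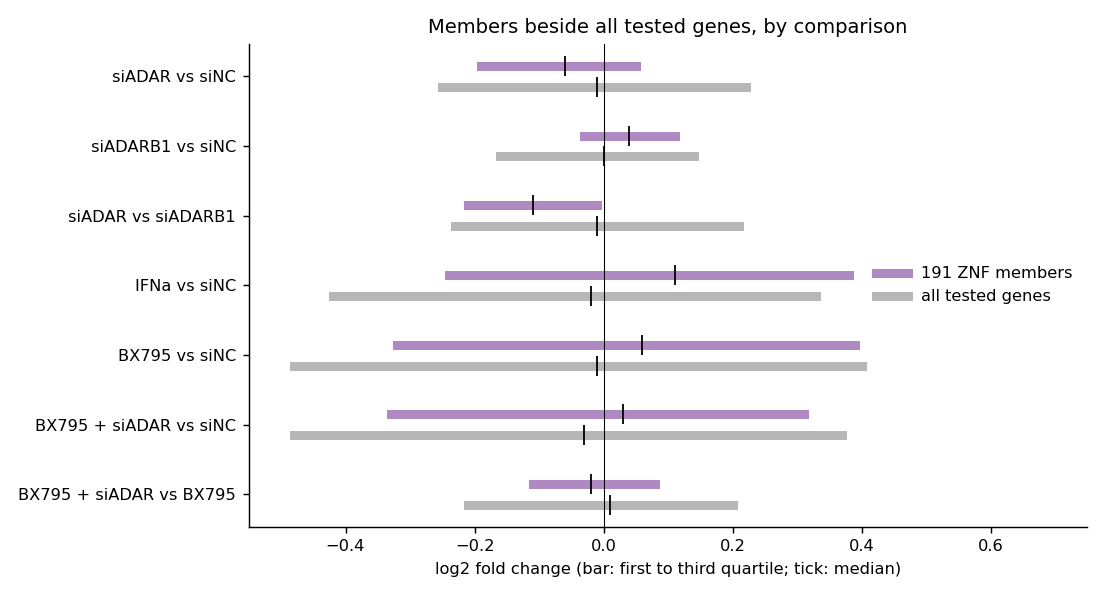
Log2 fold change of the 191 ZNF genes and of all tested genes in the 7 comparisons; bars run between the quartiles and the mark is the median. For siADAR against siNC the members' quartiles are −0.19 and 0.05, against −0.25 and 0.22 for all tested genes.

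In batch 2, ZNF levels after IFNa and BX795 moved with the GC content of their transcripts. Over the 191 members, Spearman's rho between GC content and log2 fold change, which share libraries and depth, was −0.58 for IFNa against siNC, −0.64 for BX795 against siNC and −0.57 for BX795 with siADAR against siNC. It was 0.01 for siADAR and 0.28 for siADARB1 in batch 1. The siNC libraries of batch 2 differed among themselves in the same measure, with a GC trend (how much further the genes above 60% GC lay from the batch mean, in log2, than those below 40%) of 0.25 to 0.96, against −0.36 and 0.07 for IFNa and −0.58 to −0.19 for BX795. All genes showed it too: rho over all tested genes was −0.52 for IFNa and −0.60 for BX795. The part of this trend in each ZNF result was not tested, and values after a GC correction are given beside them.

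**Figure D4:**
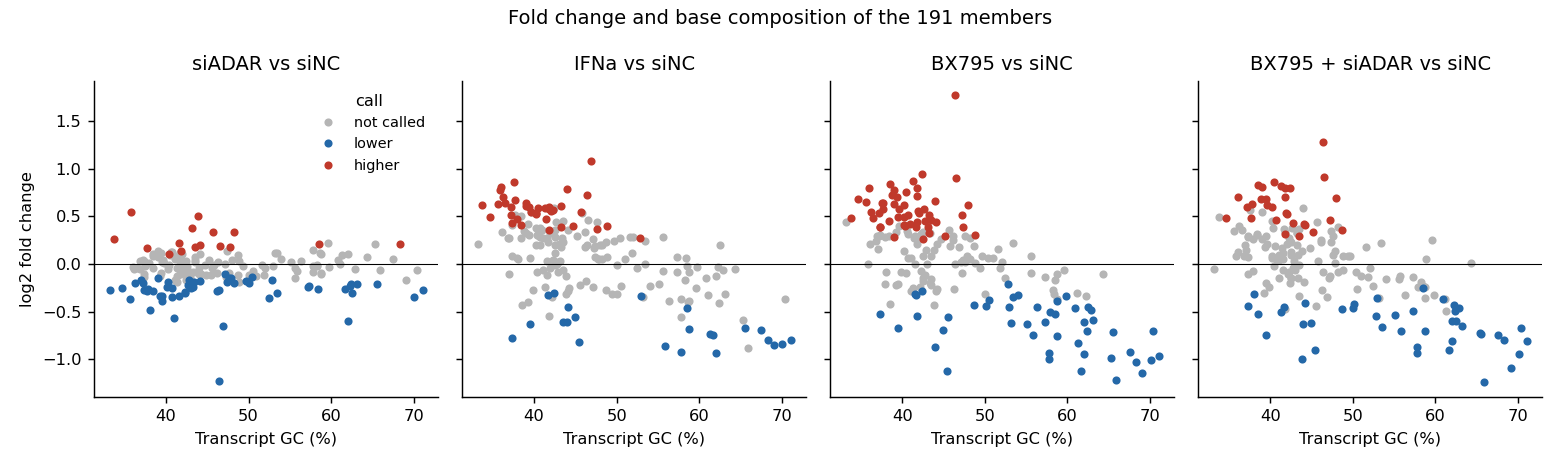
Log2 fold change of each ZNF gene against the GC percentage of its longest transcript in 4 comparisons. Points of IFNa and BX795 against siNC slope downward (rho −0.58 and −0.64), whereas those of siADAR against siNC do not (rho 0.01).

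After BX795, 52 members were higher and 48 lower, or 52.4%, against a background of 42.1% called with 20.2% higher and 21.9% lower. Of 41 members under 40% GC, 21 were higher and 2 lower, and of 21 members over 60% GC, 0 were higher and 18 lower. All tested genes had a like slope with GC (rho −0.60, against −0.64 for the members), so the slope is not particular to ZNF genes. Calls by GC class over all genes are not given, so these counts cannot be read as a result about ZNF genes. With GC correction the split was 27 higher and 53 lower, against 14.2% and 16.1% of all tested genes, and with no expression filter it was 67 and 31, against 10.2% and 7.28%. ZNF521, which its BX795 libraries put over the limit, had 37.4, 47.0 and 41.7 CPM after BX795 and 14.3, 12.8 and 9.69 CPM after siNC. ZNF462 had 96.55, 107.5 and 104.6 CPM after BX795 and 67.5, 53.8 and 43.5 CPM after siNC (0.90 ± 0.15, adjusted p = 0.00141, edgeR; 0.75 with GC correction). ZNF33B, a KRAB gene of chromosome 10, had 44.7, 50.05 and 43.0 CPM after BX795 and 28.3, 24.3 and 24.5 CPM after siNC (0.83 ± 0.12, adjusted p = 0.000824; 0.41 corrected). In ZNF462 and ZNF33B every BX795 library exceeded every siNC library.

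Among the falls after BX795, ZNF580 had 15.5, 13.1 and 15.2 CPM after BX795 and 29.9, 31.1 and 34.45 CPM after siNC (−1.12 ± 0.14, adjusted p = 0.000319, edgeR; −0.52 with GC correction). ZNF593, a nuclear factor of ribosome assembly, had 11.2, 9.64 and 10.5 CPM after BX795 and 16.3, 22.2 and 21.75 CPM after siNC (−0.94 ± 0.16, adjusted p = 0.00163; −0.30 corrected). ZNF587B also fell (−1.12, and −1.31 corrected), whereas the fall of ZNF358 (−1.15), with 69.1% GC, lost its call with GC correction, at −0.08. ZNF579, with 65.8% GC, was at −1.22 (−0.35 corrected), and without the siNC libraries of batch 2 its mean lies under 10 CPM. The 18 members of the distal chromosome 19 stretch from ZNF579 to ZNF446 had 0 rises and 11 falls with a median of −0.44, while the stretch from ZNF841 to ZNF765 had 7 rises and 3 falls with a median of 0.34. With GC correction the ZNF579 to ZNF446 stretch had 2 rises and 8 falls (median −0.18), and the ZNF841 to ZNF765 stretch 2 rises and 5 falls (median 0.01). Over all tested genes 20.2% were higher and 21.9% lower, or 14.2% and 16.1% with GC correction. Without BX795 replicate 2 the count of called members was 62.

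After IFNa, 39 members were higher and 23 lower, or 32.5%, against a background of 22.7% called with 11.9% higher and 10.9% lower. Of 41 members under 40% GC, 18 were higher and 2 lower, and of 21 over 60% GC, 0 were higher and 9 lower. Here too all tested genes had a like slope with GC (rho −0.52, against −0.58 for the members). Calls by GC class over all genes are again not given, so these counts cannot be read as a result about ZNF genes. With GC correction 26 were higher and 29 lower, against 9.1% and 9.7% of all genes, and with no expression filter 73 and 18, against 8.27% and 3.7%. ZNF385B had 35.5 and 25.3 CPM after IFNa and 18.6, 12.1 and 12.05 CPM after siNC (1.08 ± 0.21, adjusted p = 0.00859, edgeR; 0.98 with GC correction). ZNF654 had 33.2 and 28.9 CPM after IFNa and 22.0, 14.2 and 16.5 CPM after siNC (0.81 ± 0.18, adjusted p = 0.0137; 0.40 corrected). ZNF785, a KRAB gene of chromosome 16, had 11.4 and 12.8 CPM after IFNa and 22.4, 19.5 and 24.3 CPM after siNC (−0.86 ± 0.15, adjusted p = 0.00662; −0.67 corrected). ZNF593 had 9.66 and 11.3 CPM after IFNa, below all its siNC libraries (−0.94 ± 0.18, adjusted p = 0.00891; −0.48 corrected). The IFNa calls rest on few libraries: without IFNa replicate 1 edgeR called 0 members (40 at an unadjusted p under 0.05), and without siNC replicate 1, 2 or 3 it called 112, 15 or 11.

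The siADAR and IFNa comparisons share no library, and 25 members were called in both. Of these 10 had the same sign and 15 the opposite, against 1366 and 1081 (55.8% the same) of the 2447 genes called in both. With GC correction 17 members were called in both and 7 had the same sign (41.2%), against 56.9% of 2144 genes; the difference between members and all genes was not tested. ZNF532 was higher and ZNF383 and ZNF852 were lower in both, also after the correction, with corrected IFNa values of 0.40, −0.95 and −0.64. ZNF107, ZNF281 and ZNF680 were higher in both, but their IFNa calls were lost with GC correction, at 0.37, 0.31 and 0.15. ZNF219, ZNF580, ZNF598 and ZNF865 were lower in both, and their IFNa calls too were lost, at 0.00, −0.32, −0.05 and 0.09. ZNF385B and ZNF521, which fell after siADAR, rose after IFNa (1.08 and 0.72, and 0.98 and 0.60 corrected).

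BX795 with siADAR, set against siNC, left 30 members higher and 42 lower, or 37.7%, against a background of 33.0% called with 16.9% higher and 16.0% lower. With GC correction 17 were higher and 51 lower, against 13.4% and 14.9% of all genes, and with no expression filter 54 and 23, against 9.36% and 5.29%. ZNF521 had 26.5 and 33.4 CPM after BX795 with siADAR, above the siNC values given for BX795. ZNF367 had 3.26 and 3.99 CPM after BX795 with siADAR and 7.24, 6.65 and 7.98 CPM after siNC (−1.0 ± 0.20, adjusted p = 0.00423, edgeR; −1.23 with GC correction), opposite in sign to its rise after siADAR in batch 1. Without BX795 with siADAR replicate 2 the count was 12, and without siNC replicate 1, 2 or 3 it was 114, 45 or 38.

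Set against BX795 alone, BX795 with siADAR called 0 members with edgeR, against a background of 3.66% of all tested genes (1.49% higher and 2.17% lower), with 13 members at an unadjusted p under 0.05. DESeq2 called 1, ZNF618 (−0.33), against 7.47% of all genes. Members ranged from −0.57 to 0.34 with a median of −0.02. With GC correction edgeR called 8 members, against 8.91% of all tested genes. These were ZNF117 (−0.47), ZNF148 (−0.29), ZNF395 (−0.37), ZNF503 (−0.34), ZNF521 (−0.48), ZNF618 (−0.37) and ZNF644 (−0.30), all lower, and ZNF217 (0.23), which was higher. Each had been called with the same sign after siADAR in batch 1, with which this comparison shares no library. Both comparisons used the ADAR siRNA, and the share of like signs over all genes is not given. Without that share the likeness cannot be read as a result about ZNF genes. Of the 8, ZNF521 lies over the limit through its BX795 libraries. ZNF644 had 48.4 and 52.4 CPM after BX795 with siADAR and 58.1, 66.4 and 63.7 CPM after BX795, and ZNF395 had 83.9 and 72.1 CPM against 100.2, 93.4 and 97.8 CPM, with no overlap in either. Of the 56 members that fell after siADAR in batch 1, 45 were negative here, as were 108 of all 191. Of the 17 that rose, 10 were positive, as were 83 of all 191. These counts too stand without the share over all genes.

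**Figure D5:**
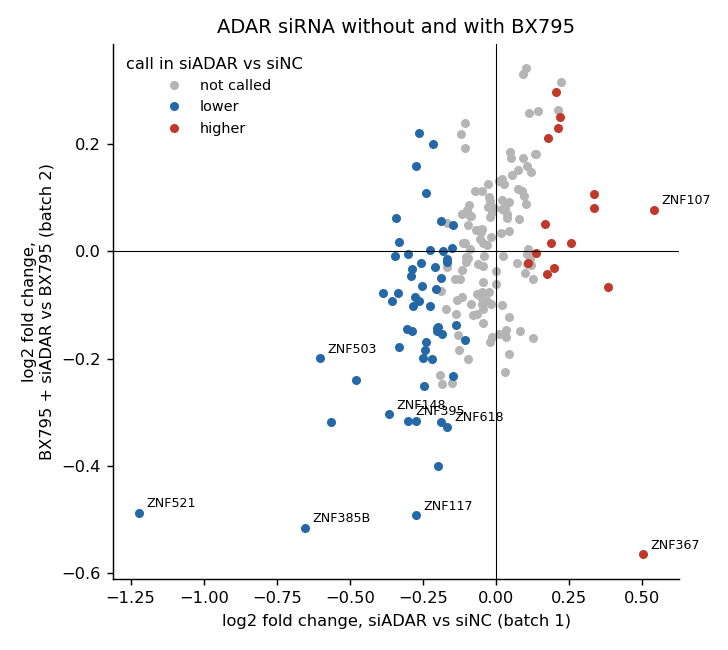
Log2 fold change of each ZNF gene for siADAR against siNC in batch 1 (horizontal) and for BX795 with siADAR against BX795 in batch 2 (vertical). Of 56 genes that fell in batch 1, 45 lie below 0 on the vertical axis.

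Of the 191 members, 33 were called in none of the 7 comparisons, among them ZNF207, ZNF384, ZNF592 and ZNF687, and 84 in none of batch 1. For 16 members at least 20% of the 75-base words of their transcripts also occur in another gene, so their values are uncertain; besides ZNF286A and ZNF395 these include ZNF410 (83.4%) and ZNF324 (31.3%, with ZNF446). The libraries were directional, but the sources used here do not say if counting used strand, so reads of members and of antisense genes over them may be mixed.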

How the data were processed

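RNA was measured by RNA sequencing in 19 HepaRG libraries in 7 groups and 2 batches. The table deposited by the authors holds expected counts per gene, 1 column per library, not normalized; the submitters' processing notes name STAR, Salmon and GRCh38.p14, with versions, settings and annotation release not given in the sources used here. Expected counts were rounded to whole numbers. Symbols were found for 61463 of 78894 rows.

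Each batch was fitted by itself with edgeR 4.0.16 in R 4.3.3 (filterByExpr, TMM scaling, quasi-likelihood F test, 6 residual degrees of freedom). This left 21747 genes in batch 1 (common biological coefficient of variation 6.68%) and 20718 in batch 2 (14.2%). Benjamini-Hochberg adjustment ran over every tested gene of the batch, and 0.05 was the threshold of a call; each adjusted p printed is from this edgeR test. Library values are TMM-scaled CPM. On simulated counts the test was checked for recovery of known changes. Depth was 13.1 to 77.1 M counts per library.

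The 191 members, the gene lists, the classes and the comparisons were chosen with earlier results of these data known. Named genes are ADAR and ADARB1, the 10 highest members, the 5 largest called rises and falls without overlap per comparison, members called alike after siADAR in both settings, called members of the role lists and genes near the level. Other names were chosen after their values were seen, for their place beside those genes. GC content came from the longest GENCODE 29 transcript, known for 87.7% and 88.8% of tested genes, and all members; the GC trend of a library is how much further its genes above 60% GC lay from the batch mean, in log2, than its genes below 40%. The correction took a lowess curve (span 0.3) of each library as an offset. Gene positions and promoters are RefSeq, GRCh38.p14. Alternatives were DESeq2 1.42.0 and its size factors, no expression filter, all 19 libraries in 1 fit, the compared groups alone, GC correction, a replicate block and leaving out each library.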

Additional observations from a re-analysis of the deposited data

Results flagged for a closer look

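Among the 191 members, ZNF367 was the only one whose response to the ADAR siRNA differed with and without BX795 in a test of the difference itself. The difference in log2 fold change, with BX795 minus without, was −1.03 ± 0.18 (adjusted p = 0.0018, edgeR, fit over all 19 libraries). ZNF367 had 3.26 and 3.99 CPM after BX795 with siADAR and 6.55, 5.42 and 4.26 CPM after BX795, and 33.9, 34.7 and 34.8 CPM after siADAR and 23.55, 24.3 and 24.97 CPM after siNC in batch 1. The difference passed for 1 of 191 members (0.524%; 15 at an unadjusted p under 0.05), against 3.42% of 23121 genes. The contrast crosses the batches, so BX795 and batch cannot be told apart in it. It also uses the siADAR libraries, and without siADAR and siADARB1 the mean of ZNF367 lies under 10 CPM. The p-value of ZNF367 carries that caveat. ZNF genes under the level are not given for this test.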

How the results depend on the processing

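Batch 2 libraries hold fewer counts than batch 1 (13.1 to 34.7 M against 42.7 to 77.1 M), vary more (biological coefficient of variation 14.2% against 6.68%) and include siNC libraries that differ in GC trend; what sets the wider spread was not tested, and smaller changes are less detectable there. Leaving out 1 library gave the following ranges of called members: 58 to 66 for siADAR against siNC, 11 to 20 for siADARB1, 61 to 82 for siADAR against siADARB1, 0 to 112 for IFNa, 62 to 127 for BX795, 12 to 114 for BX795 with siADAR against siNC and 0 to 0 against BX795. Shared members, here and below, are those called in both comparisons with the same sign. For siADAR and IFNa they were 10 in the main fit and ran from 0 to 18. For siADAR and BX795 with siADAR against BX795 they ran from 0 to 0. Medians ran from −0.07 to −0.05, 0.03 to 0.05, −0.13 to −0.10, 0.08 to 0.20, 0.03 to 0.10, −0.07 to 0.09 and −0.08 to 0.00 in the order of the 7 comparisons above. ADAR ran from −2.07 to −1.96 after siADAR and −2.37 to −2.29 with BX795, and ADARB1 from −1.62 to −1.55. Of the 175 values of named genes, 2 lost their call with DESeq2, 1 with its size factors, 11 with no filter, 19 in the groups alone and 46 in the fit over all 19 libraries.

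The fit over all 19 libraries called 26 members for siADAR, 0 for siADARB1 (17 at an unadjusted p under 0.05), 34 for siADAR against siADARB1, 110 for IFNa and 5 for BX795 with siADAR against BX795, with 3 shared with siADAR for each of IFNa and the last. The compared groups alone gave 25 for IFNa, 44 for BX795 with siADAR against siNC and 1 against BX795, with 4 shared with IFNa and 1 with the last. DESeq2 gave 1 for the last, shared with siADAR. Control 1 of batch 2 alone, chosen after seeing the data, gave 0 for IFNa (28 unadjusted), 7 for BX795 and 9 for BX795 with siADAR. With no filter, medians were −0.12 for siADAR against siADARB1, 0.25 for IFNa, 0.16 for BX795 and 0.17 for BX795 with siADAR; all 19 libraries gave −0.13 for the first.

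Correlations between same-numbered libraries of different groups lay between −0.0877 and 0.1072 in batch 1, against −0.1222 and 0.162 for other numbers. In batch 2 they lay between −0.5214 and 0.538, against −0.538 and 0.5214. Groups of 2 libraries deviate from their mean in mirror image, so the check cannot tell if batch 2 replicates were paired. A replicate block gave 2 calls for IFNa and 30 for BX795 with siADAR against siNC, 0 shared between siADAR and IFNa, and took the call of 48 named values. The block with GC correction gave 17 for IFNa, 64 for BX795, 44 for BX795 with siADAR against siNC and 1 against BX795, with 3 and 1 shared with siADAR. Its medians were −0.07, −0.13, 0.05, −0.02 and −0.08 for siADAR, siADAR against siADARB1, IFNa, BX795 and BX795 with siADAR against siNC. GC correction alone gave 8 for BX795 with siADAR against BX795, all 8 shared with siADAR, and medians of −0.07, −0.13, 0.04, −0.02 and −0.08 in the same order.

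With GC correction, 12 named values changed sign and 45 lost their call, and with the block as well 13 and 61. Without and with the block, ZNF219 was at 0.00 and 0.04 for IFNa, 0.16 and 0.16 for BX795 and 0.01 and 0.05 for BX795 with siADAR. ZNF316 was at 0.02 and 0.02 for BX795, 0.06 and 0.09 for BX795 with siADAR and 0.00 for IFNa with the block. For BX795, ZNF503 was at 0.02 and 0.02, ZNF598 at 0.14 and 0.15, ZNF644 at −0.06 and −0.06, ZNF655 at −0.11 and −0.11, ZNF680 at −0.08 and −0.07, and ZNF692 at 0.05 and 0.05. For BX795 with siADAR, ZNF512B was at 0.03 without the block and ZNF668 at 0.04 with it. The cause of these changes was not tested beyond the correction itself.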
